A study of Mus musculus with 4 samples.

Results

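CD4 T cells of mouse subcutaneous adipose tissue (SAT) that carried no transcript of the cell division genes Mki67 or Top2a were described in single-cell RNA-seq data. They were selected on their own transcript counts, in unique molecular identifiers (UMIs), each of which stands for 1 captured RNA molecule. A cell of 200 or more genes was taken as a member when it had at least 2 UMIs of the T cell receptor chains Cd3d, Cd3e and Cd3g together, at least 1 UMI of Cd4, none of Cd8a, Cd8b1, of the B cell genes Cd79a and Ms4a1, of Mki67 or of Top2a, and at most 1 of the myeloid gene Lyz2. Cells with Nkg7 and any of Ccl5, Gzma and Gzmb, transcripts of cytotoxic cells, were left out. Applied to the SAT libraries, the rule found 190 cells among 4738 SAT cells. The whole series held 8986 cells of 200 or more genes.

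VFB mice (FVB in the study's text, fed chow) carried subcutaneous grafts of MycCaP, a prostate cancer cell line that came from HiMyc mice, labelled MycCap. The control mice received PBS and the other mice D-CAN, a peptide that targets adipose stromal cells (ASC). Stromal and vascular cells of SAT were freed of dead cells and of red cells and captured with 10x 3′ chemistry (v3 per the labels). There was 1 SAT library per treatment, with 2841 control cells and 1897 D-CAN cells, and the sources used here do not say how many mice each holds. Differences between treatments therefore have no replicate check and no test, and all intervals given are exact 95% intervals for counting error only. The control library held 6667064 UMIs with a median of 1700 per cell, and the D-CAN library 7444729 with a median of 2920.5.

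CD4 T cells recognise peptides shown on MHC class II molecules and help B cells, macrophages and CD8 T cells through cytokines and CD40 ligand. Naive CD4 T cells circulate through lymph nodes, memory cells stay in tissues or return to them, and regulatory T cells, which depend on the transcription factor FOXP3, restrain responses and are known in adipose tissue for their part in keeping inflammation low. CD8 T cells recognise peptides on MHC class I and kill.

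The CD4 T cells made up 3.03% of control SAT cells (86 cells, exact interval 2.43 to 3.73%) and 5.48% of SAT cells after D-CAN (104 cells, 4.50 to 6.60%). The share of other lymphocytes stood higher in the D-CAN library too, with CD8 T cells at 4.51% and 7.38% and B cells at 16.5% and 25.0% of control and D-CAN cells, and that of stromal and endothelial cells lower, at 17.5% and 11.7%. Set against the CD8 T cells alone, the 2 libraries were close, since CD4 T cells were 40.2% (33.6 to 47.1%) of CD4 plus CD8 T cells in the control and 42.6% (36.3 to 49.1%) in the D-CAN library. The intervals of these last shares overlap.

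**Figure D1:**
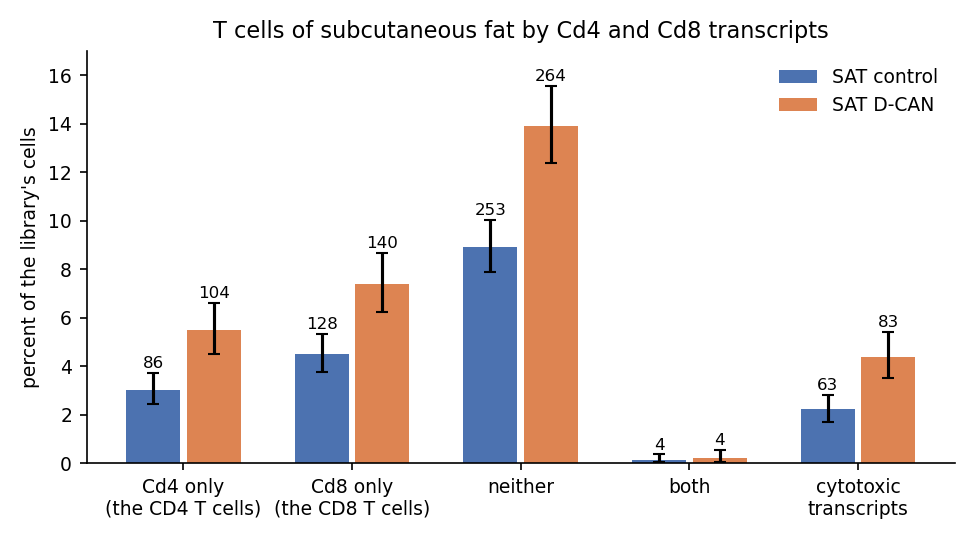
Percent of each SAT library's cells (y axis) in 5 classes of T cells set by their Cd4, Cd8a, Cd8b1 and cytotoxic transcripts (x axis), for the control and D-CAN libraries. Bars are shares, lines exact 95% intervals for counting error, and numbers the cells. The largest class in both libraries, with 253 and 264 cells, has neither Cd4 nor Cd8 transcripts.

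Many T cells could not be placed. In the control library 253 T cells and in the D-CAN library 264 met every other condition and had neither Cd4 nor Cd8a nor Cd8b1, which was 53.7% and 51.6% of T cells in the classes set by these transcripts, and 4 cells of each library had both. Among the members, 59 of 86 control and 76 of 104 D-CAN cells had exactly 1 Cd4 UMI, and 7 in each library had exactly 2 Cd3 UMIs. Just outside the rule were 4 control and 9 D-CAN cells with Cd4 and 1 Cd3 UMI. The counts therefore are of cells in which Cd4 was found, not of all CD4 T cells.

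The cells were CD4 T cells by their defining genes. Cd3e, a chain of the T cell receptor complex (chr9:44998740-45009627, minus strand, GRCm38), was found in 57 control and 73 D-CAN members, at 444 and 375 CPM (the UMIs of a gene scaled to the same total in every library and class), and Cd4, the co-receptor for MHC class II (chr6:124864692-124888221, minus strand), at 462 and 335 CPM. Both genes belong to the rule, so these values describe and do not test. The members had a median of 2791 UMIs and 955 genes in the control and 3764 UMIs and 1103.5 genes in the D-CAN library, and their summed UMIs were 277012 and 420840.

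Transcripts of other cell types were few but came in part from single cells. Of the fibroblast and ASC list, 7 and 8 UMIs were found in control and D-CAN members, with Dcn, Pdgfra and Lum at 0, and of the macrophage list 14 and 26, with C1qa, C1qc and Csf1r at 0. Mast cell markers had 0 UMIs in both, neutrophil markers 1, mural markers 1 and markers of MycCaP cells 4 and 3. Markers of plasma cells had 11 and 15 UMIs, led by Xbp1, of red cells 10 and 11, led by Hbb-bs, and of NK cells and ILC 38 and 47, led by Gata3, with Eomes at 0. Cst3 gave nearly all of the dendritic list, 83 and 43 UMIs in sum.

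Part of the endothelial and B cell markers came from few cells. Endothelial markers summed to 53 UMIs in the control members, led by Fabp4, and 140 in the D-CAN members, led by Pecam1, and 1 cell held 58.5% and 72.1% of them. B cell markers summed to 148 and 77 UMIs, and 1 control cell held 47.3% of its sum, led by the MHC class II gene H2-Ab1, against 11.7% in the D-CAN library, where Ighm led. Doublets, 2 cells under 1 barcode, were not called, and a gene is given below with the share of its UMIs in 1 cell where that share is large. The SAT libraries shared 2 cell barcodes, both of them members in the control, where the D-CAN cells of those barcodes were a B cell and a CD8 T cell.

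CD4 and CD8 T cells of the same library were compared to find what the CD4 T cells express beside the genes that chose them. CD8 T cells met the same conditions with Cd8a or Cd8b1 and no Cd4 UMI, and cytotoxic cells were left out of them too. That left 128 control and 140 D-CAN CD8 T cells, where 167 and 193 were counted with cytotoxic cells kept, so the contrasts are not against all CD8 T cells. Higher in CD4 T cells were genes of the CD4 lineage such as Cd40lg, of activated and memory cells such as S100a4 and of regulatory T cells such as Ikzf2 and Il2ra. Genes of killing such as Ctsw and Klrd1, the chemokine Ccl4, the Ly6c2 gene and ribosomal protein genes were higher in CD8 T cells. Of 5918 genes tested, 258 were called at an adjusted p under 0.05 (4.36%), 106 of them higher in CD4 T cells (1.79%) and 152 higher in CD8 T cells (2.57%), by edgeR's quasi-likelihood test with Benjamini-Hochberg adjustment on UMIs summed per library and class, with the library as a block. For 247 of the 258, both libraries held enough UMIs to give a direction, and it was the same in both for 242. The SAT libraries, which differ in treatment, served as the replicates. The fit rests on 4 sums with 1 residual degree of freedom and shares its spread over all genes. That shared spread had an infinite weight (prior degrees of freedom). A gene's own spread between the libraries therefore did not enter its p-value. UMIs held in 1 cell entered the sums like those of many cells, and p-values do not measure a spread between mice. The call count was 83 with cells of 500 or more genes, 41 higher in CD4 and 42 in CD8 T cells. That setting kept 274973 of the 277012 UMIs of control CD4 T cells, and the prior degrees of freedom fell from infinite to 9.75. The part of each in the lower count was not tested. The call count was 20 with DESeq2 without independent filtering, 8 and 12 in the same order.

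**Figure D2:**
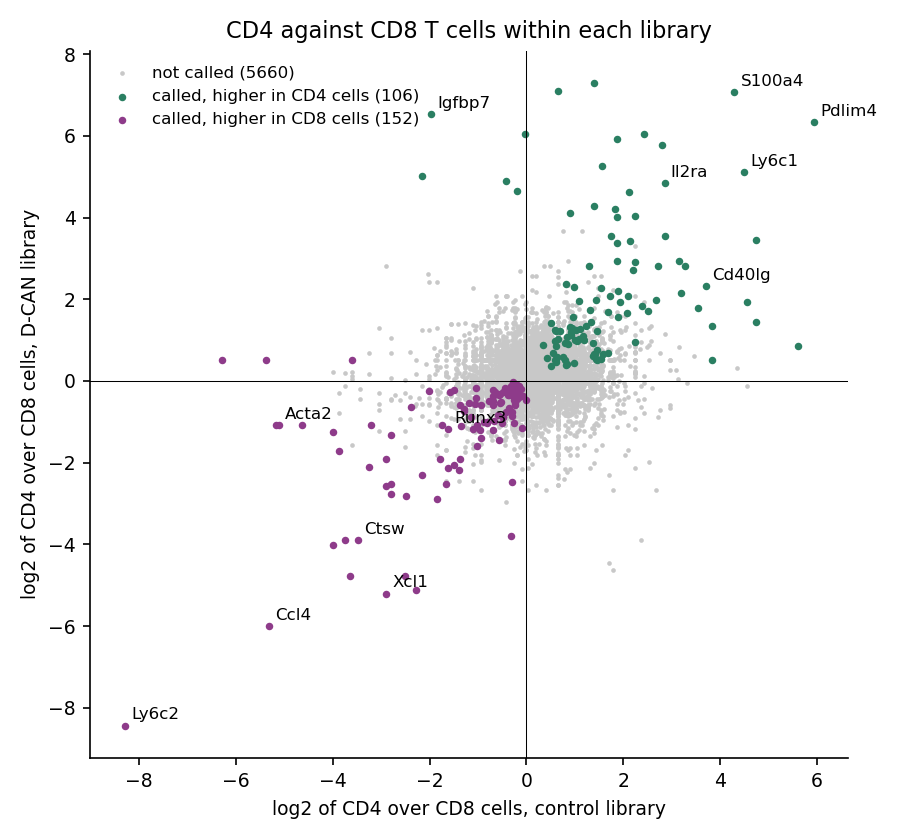
Log2 ratio of CPM in CD4 over CD8 T cells in the control library (x axis) and in the D-CAN library (y axis), 1 point per gene tested. Green points are the 106 genes called higher in CD4 T cells and purple points the 152 called higher in CD8 T cells. S100a4, Pdlim4 and Cd40lg lie high and Ly6c2, Ccl4 and Ctsw low on both axes.

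Most of the CD4 lineage list was higher in CD4 T cells. Of 9 genes, 7 were called higher and 0 lower, with Tox (log2 0.69) and Satb1 (-0.18) not called, and the median log2 fold change was 1.57 against 0.01 over all genes tested. Cd40lg, which encodes CD40 ligand (chrX:57212143-57224042, plus strand), was at 134 CPM in control and 61.8 in D-CAN CD4 T cells and at 9.19 and 11.8 in the CD8 T cells (log2 fold change 2.93, SE 0.40, edgeR adjusted p = 4.37e-11). Every CD4 value lies above every CD8 value. Zbtb7b, the transcription factor that directs thymocytes to the CD4 fate (chr3:89377644-89394776, minus strand), was at 25.3 and 28.5 in CD4 against 6.89 and 1.68 CPM in CD8 T cells (log2 2.60, SE 0.75, edgeR adjusted p = 0.0166), on 7 and 12 UMIs. It reached the minimum of 20 UMIs for a test through the CD4 T cells, where it was higher. Icos, a costimulatory receptor (chr1:60977927-61000320, plus strand), was at 224 and 181 against 82.7 and 45.3, with a log2 fold change of 1.57. Izumo1r, the folate receptor 4 gene found on regulatory and anergic CD4 T cells (chr9:14885814-14903949, minus strand), was at 224 and 116 against 59.7 and 38.6 CPM. In all 4 genes the lower CD4 library was above the higher CD8 library, as in 1639 of the 5918 genes tested (27.7%).

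Among genes outside the lists, Pdlim4, a PDZ and LIM domain protein of the actin cytoskeleton (chr11:54054928-54069014, minus strand), had 19 and 28 UMIs in control and D-CAN CD4 T cells, in 15 and 19 cells, and 0 in CD8 T cells of both libraries. Against the floor of 3 UMIs over both libraries it was at least 23.1-fold higher in CD4 T cells. Cd200r1, an inhibitory receptor, had a log2 fold change of 4.34 on 19 CD4 and 1 CD8 UMIs (counting interval 2.16 to 10.19) and Cd81, a tetraspanin, of 3.83 on 34 and 3 (2.40 to 6.41). Cd81 was at 2.80 within the control library alone and at 5.79 within the D-CAN library. Cd200r1 reached the minimum of 20 UMIs through the CD4 T cells and was not called with cells of 500 or more genes. Col4a2, Gpihbp1, Aqp1 and Egfl7, genes of blood vessels, were also among the 10 largest, but 83.3%, 90.9%, 90.3% and 81.0% of their CD4 UMIs lay in 1 cell, the same D-CAN member for all 4 genes. With cells of 3 or more UMIs of stromal or endothelial markers left out, a filter chosen after the values were seen, 187 genes were called, 178 of them among the 258.

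The lists of activated and memory and of regulatory T cells were the next. Of the 18 tested of 19 activated and memory genes, 9 were higher in CD4 T cells and 0 lower (median log2 0.68). S100a4, a calcium-binding protein of motile and memory cells (chr3:90603771-90606045, plus strand), was at 336 CPM in control and 563 in D-CAN CD4 T cells against 16.1 and 3.36 in CD8 T cells (log2 5.56, SE 0.28, edgeR adjusted p = 1.83e-82). It came from few cells, 14 control and 12 D-CAN members, and 1 D-CAN cell held 90 of the 237 D-CAN UMIs, 27.3% of those of both libraries. With cytotoxic cells kept in both classes, the log2 fold change of S100a4 was 3.41 and that of Ccr2, a chemokine receptor, 1.72 in place of 3.13. S100a6, another gene of that family (chr3:90612882-90624181, plus strand; log2 3.38), Maf, a transcription factor of effector and IL-10-producing T cells (2.60), Rora (2.47), Ccr2 (3.13), Lgals3 (2.09), Lgals1 (1.63), Cd44 (1.33) and Vim (0.76) were the other genes called.

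Of the 11 tested of 17 regulatory T cell genes, 8 were higher in CD4 T cells and 0 lower, with a median of 1.63. Ctla4, Tnfrsf4 and Izumo1r are also in the CD4 lineage list, and Gata3, Rora and Dapl1 each stand in several lists. The counts of the lists therefore share genes. Ikzf2, the transcription factor Helios (chr1:69531214-69687245, minus strand), was at 332 and 171 CPM in CD4 against 57.4 and 52.1 in CD8 T cells (log2 1.99, SE 0.22, edgeR adjusted p = 2.86e-16). Il2ra, the interleukin 2 receptor alpha chain (chr2:11642807-11693193, plus strand), had 11 and 30 UMIs in CD4 and 2 and 1 in CD8 T cells (log2 4.05, and 2.69 to 6.67 by the counting interval of the summed UMIs). For both genes each CD4 library lies above each CD8 library, which held for 27.7% of genes tested. Capg, an actin-capping protein, followed with 2.39, Nrp1, a semaphorin and VEGF co-receptor, with 2.30, the TNF receptors Tnfrsf4 (OX40) and Tnfrsf18 (GITR) with 2.12 and 0.97 and the checkpoint receptor Ctla4 with 0.85. Foxp3 itself had 5 and 9 UMIs in CD4 T cells and 2 and 1 in CD8 T cells and was under the minimum of 20 UMIs for a test.

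Few genes of the Th1, Th2 and Th17 lists reached the minimum of 20 UMIs. Of the Th1 list 3 of 7 genes reached the minimum, with 0 called, of the Th17 list 0 of 6, of the Th2 list 2 of 6 with Gata3 called (log2 1.07), and of the follicular helper list 7 of 10 with Icos called. The follicular helper list summed to 754 and 554 CPM in CD4 and 450 and 321 in CD8 T cells of the control and D-CAN libraries. Ifng, the Th1 cytokine, had 7 UMIs in 3 control members and 0 in the D-CAN members. Il17a, the Th17 cytokine, had 0 UMIs in the control members and 17 in the D-CAN members, all in 1 cell, and Il21, a cytokine of follicular helper cells, 0 and 7, also in 1 cell. Il4 had 3 and 5 UMIs, in 2 members of each library. Of the list for regulatory T cells of fat, 4 of 7 genes were tested and Areg, Gata3 and Rora called, though 68.6% of the CD4 UMIs of Areg, an epidermal growth factor family ligand, were in 1 cell, and Il1rl1 and Pparg, the genes best known for these cells, had 1 UMI each in the control members and 0 in the D-CAN members. Of 11 genes of innate-like and gamma-delta T cells 0 reached the minimum.

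On the CD8 side, 8 of the 11 tested of 17 genes of CD8 lineage and killing were higher in CD8 T cells and 0 in CD4 T cells, with a median log2 fold change of -1.75. Ctsw, a cathepsin of cytotoxic cells (chr19:5465043-5468507, minus strand), had 5 UMIs in the CD4 T cells of either library and 96 and 115 in the CD8 T cells of the control and D-CAN libraries, 220 and 193 CPM (log2 -3.93, SE 0.32, edgeR adjusted p = 6.62e-31). Runx3, which silences Cd4 in CD8 cells (chr4:135120652-135177990, plus strand), had 18 and 31 UMIs in CD4 against 89 and 100 in CD8 T cells (log2 -1.51). In CPM, the CD8 values of both genes lie above all CD4 values, as in 796 of the genes tested (13.5%). Ccl4, a chemokine, and Eomes, a transcription factor of CD8 memory and NK cells, had 0 UMIs in the CD4 T cells, so that they were at least 17.1-fold and 5.19-fold lower there. For Ccl4, 33 of its 76 CD8 UMIs were in 1 cell, and the bound was 9.70-fold without it. Eomes, on 23 UMIs, reached the minimum through the CD8 T cells alone and was not called with cells of 500 or more genes. Xcl1 (log2 -5.01, counting interval -8.07 to -3.11, 55.8% of its CD8 UMIs in 1 cell), Ccr9 (-4.42, interval -9.91 to -1.99), Klrd1 (-2.51), Cst7 (-1.75) and Dapl1 (-1.23) were the other genes of the list called. Within the control library alone Xcl1 was at -2.89 and Ccr9 at -2.29, and within the D-CAN library at -5.21 and -5.11.

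Ly6c2 (chr15:75108158-75111970, minus strand), a surface antigen of memory CD8 T cells, had 246 and 245 UMIs in the CD8 T cells and 0 in the CD4 T cells, at least 111-fold lower. Ly6c1 (chr15:75044018-75048830, minus strand), a near-identical copy beside it, went the other way, with 21 and 36 UMIs in CD4 and 1 and 1 in CD8 T cells (log2 5.08, SE 0.59, edgeR adjusted p = 3.15e-15; counting interval 3.48 to 8.48). Of its CD4 UMIs 38.6% were in 1 cell, and its log2 fold change was 4.32 without stromal or endothelial marker cells and 2.90 with cytotoxic cells kept. The split of reads between copies so alike is uncertain. Plac8, which had 29 and 19 UMIs in CD8 T cells and 1 in CD4 T cells, was also higher in CD8 T cells (log2 -4.86, counting interval -10.36 to -2.47). H2-Oa, a chain of the MHC class II regulator H2-O, had 10 UMIs in the CD8 T cells of either library and 0 in the CD4 T cells, at least 4.51-fold lower. It reached the minimum through the CD8 T cells alone and was not called with cells of 500 or more genes. Tpm2, Mylk and Acta2, contractile genes of smooth muscle, were among the 10 largest too, with 93.1%, 95% and 98.8% of their CD8 UMIs in 1 control cell. That cell held 98.9% of the 175 mural marker UMIs of the control CD8 T cells.

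Naive T cell genes lay on both sides. Of 13 genes, 6 were above 0 and 7 below. In calls, Ccr7, Klf2 and Dapl1 were higher in CD8 T cells (log2 -0.76, -0.37 and -1.23) and Igfbp4 higher in CD4 T cells (0.92), with a median of -0.18. Ccr7 and Klf2 were not called with cytotoxic cells kept (log2 -0.46 and -0.32, edgeR adjusted p = 0.0733 and 0.0536). The list summed to 3512 and 4144 CPM in CD4 and 3743 and 4510 in CD8 T cells. Ccr7 encodes the receptor that brings cells into lymph nodes. Lef1 and Tcf7, transcription factors of naive T cells, were not called, at 0.19 and 0.13. The chemokine and egress receptor list, 7 of 13 genes tested, had Ccr2 higher and Ccr7 and Ccr9 lower.

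The other lists are given by their counts, beside the 4.36% of all genes called. Of 16 genes of the T cell receptor complex and signalling, Cd28 (0.48) and Ptprcap (0.55) were higher in CD4 T cells. Of 15 interferon-stimulated genes tested, Ly6a (2.48) and Ifi27l2a (0.96) were higher, and of 11 glycolysis genes Pkm (0.63) and Tpi1 (0.87). Checkpoint receptors had 4 of 8 higher, the genes Ctla4, Icos, Tnfrsf18 and Tnfrsf4 already given. Of 14 immediate early genes Dusp1 (0.67) and Nfkbia (0.54) were higher and Fos (-0.40, not called with cytotoxic cells kept) and Fosb (-0.65) lower, of 10 heat shock genes Hspa1a (0.48) was higher and Hspe1 (-0.50) lower, and of 9 cell cycle genes tested Tubb5 (-0.55) was lower. Of the sex-linked list, 4 genes were tested and 0 called. Ribosomal protein genes stood apart, with 47 of 87 higher in CD8 and 0 in CD4 T cells (median -0.28). Their share of UMIs had a median of 38.4% in D-CAN CD4 and 41.0% in D-CAN CD8 T cells, and was lower in the CD4 T cells of the control too. Mitochondrial genes had 8 of 13 higher in CD8 T cells (median -0.33). Only 42 genes of any kind were called higher in CD8 T cells with cells of 500 or more genes, and 30 with no library block. The 47 ribosomal calls therefore do not all hold under these settings.

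**Figure D3:**
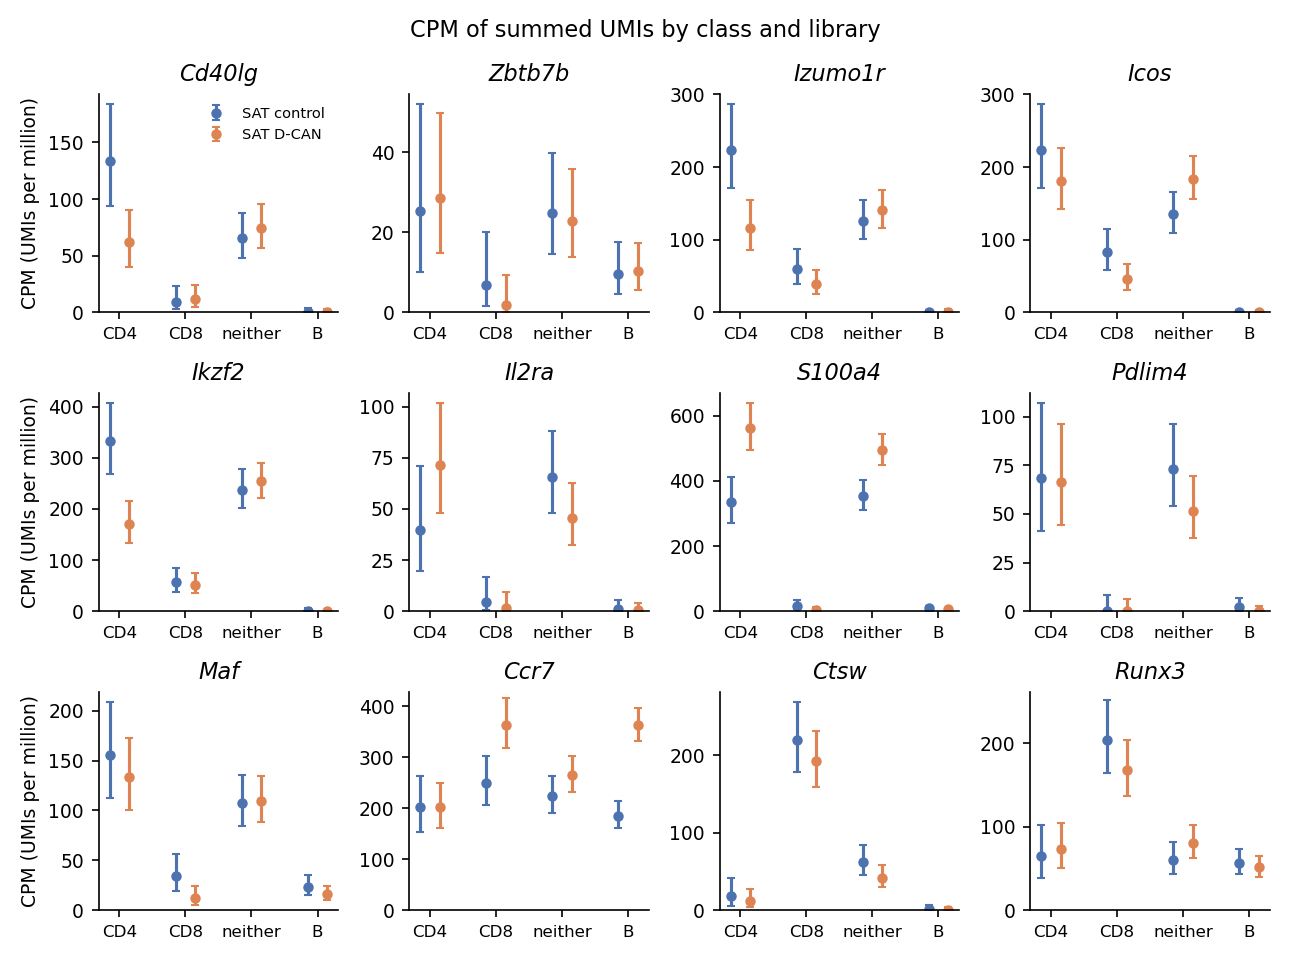
CPM of summed UMIs (y axis, starting at 0) of 12 genes in CD4 T cells, CD8 T cells, T cells with neither transcript and B cells, for the control and D-CAN libraries. Points are the library sums and lines exact Poisson 95% intervals for counting error. Cd40lg, Izumo1r, Icos, Ikzf2, Il2ra, S100a4 and Pdlim4 are high in the CD4 and the unplaced T cells, and Ctsw and Runx3 in the CD8 T cells.

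The T cells with neither transcript lay on the CD4 side for several of these genes. Pdlim4 was at 72.9 and 51.7 CPM in them and S100a4 at 355 and 495, each near the CD4 value. Ikzf2 was at 238 and 254, lower than in CD4 T cells in the control and higher than in them in the D-CAN library. Both values of Ikzf2 were above those of the CD8 T cells. The CD4 lineage list summed to 1498 and 1267 CPM in CD4, 790 and 687 in CD8 and 1157 and 1239 in the unplaced T cells of the control and D-CAN libraries. For the CD8 lineage and killing list the sums were 375 and 323, 1086 and 1162, and 500 and 517. The list of innate-like and gamma-delta T cells summed higher in them than in either, at 199.9 and 185 CPM against 0 and 68.9 in CD4 and 13.8 and 6.72 in CD8 T cells. Of these UMIs, 1 cell held 35.8% in the unplaced control T cells and 58.6% in the D-CAN CD4 T cells. These sums are a description, and the unplaced cells were in no test.

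How the members differed among themselves was read first from single transcripts. To set shares of cells side by side at 1 depth, UMIs were drawn at random from every cell down to 1000, and 3 control and 2 D-CAN members with fewer were dropped. Lef1 was found in 28.9% of control and 34.3% of D-CAN members at that depth, and in 0.670% and 0.215% of B cells. In the cells at full depth, Lef1 was found in 52.3% and 63.5%, most members of both libraries. Ccr7 stood at 9.64% and 11.8%, against 23.3% and 27.0% of CD8 T cells. Without thinning, 51 of 86 control members (59.3%) and 74 of 104 D-CAN members (71.2%) had a UMI of Ccr7 or Lef1 and none of S100a4 or S100a6. Another 12 and 9 members had S100a4 or S100a6 and neither of the naive genes, 6 in each library had transcripts of both groups and 17 and 15 of none.

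S100a4 was found in 10.8% of members in both libraries after thinning, against 1.67% and 1.46% of CD8 T cells and 0.223% and 0.430% of B cells. Cd40lg was found in 14.5% and 7.84% of members and in 0 of 448 and 0 of 465 B cells, which allows shares of up to 0.670% and 0.645%. Ctsw was found in 1.20% of control members and in 0 of 102 D-CAN members, which allows up to 2.94%, and in 16.7% and 22.6% of CD8 T cells.

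Foxp3 (chrX:7573644-7595245, plus strand) was found in 3 control and 7 D-CAN members, 3.49% and 6.73%. After thinning it was found in 2 of 83 (2.41%, interval 0.293 to 8.43%) and 4 of 102 (3.92%, interval 1.08 to 9.74%), and in 0 of 448 and 1 of 465 B cells. The difference between libraries is within these intervals. All 3 control and 6 of 7 D-CAN cells with Foxp3 also had Ikzf2, Il2ra or Ctla4, while 19 control and 11 D-CAN members had Ikzf2 and no Foxp3. The members without Foxp3 were counted for Ikzf2 alone and not for any of the 3 genes, so these figures cannot be compared. At this depth a Foxp3 transcript can be missed, so the cells without one are called Foxp3-zero and not Foxp3-negative.

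**Figure D4:**
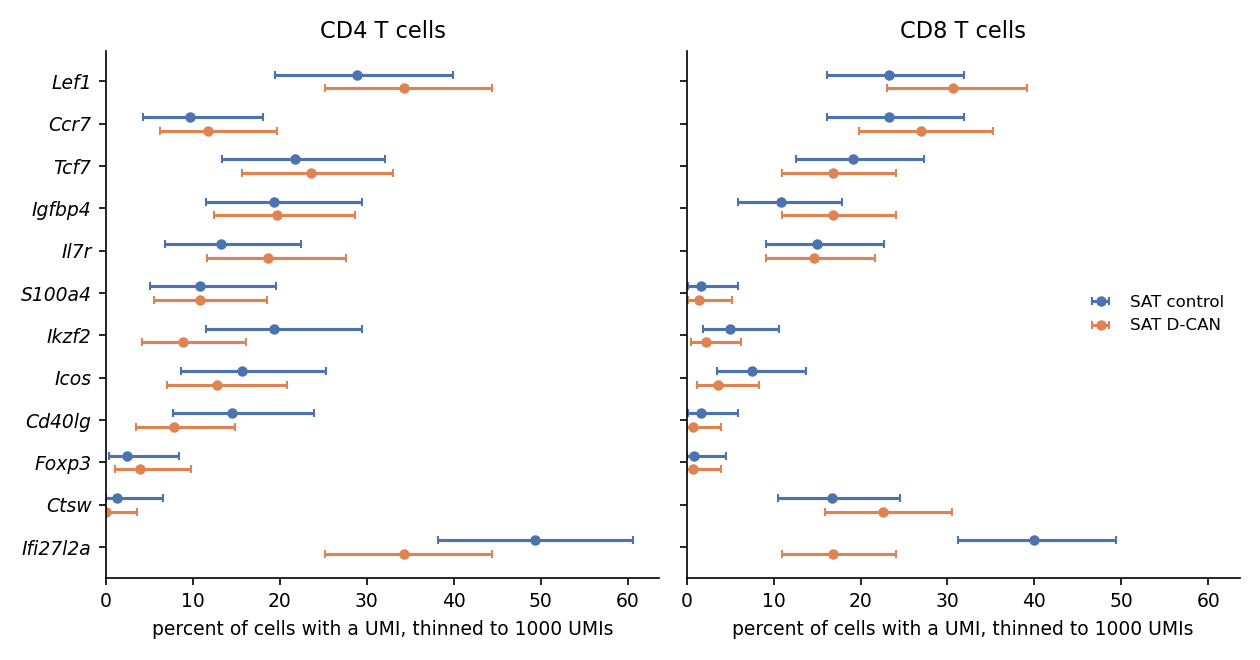
Percent of CD4 T cells (left) and CD8 T cells (right) with a UMI of each of 12 genes (y axis) after every cell was thinned to 1000 UMIs, for the control and D-CAN libraries. Points are shares and lines exact 95% intervals for counting error. S100a4, Ikzf2 and Cd40lg are found more often among CD4 T cells, and Ctsw among CD8 T cells.

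Members with Foxp3 were compared with Foxp3-zero members within each library. Of 3421 genes tested, 5 were called (0.146%), 2 higher in Foxp3-positive cells (0.0585%) and 3 higher in Foxp3-zero cells (0.0877%), by edgeR's quasi-likelihood test with Benjamini-Hochberg adjustment, with 139 genes at an unadjusted p under 0.05. Il2ra had 0 and 25 UMIs in the 3 control and 7 D-CAN Foxp3-positive cells and 11 and 5 in the 83 and 97 Foxp3-zero cells (log2 3.49, SE 0.78, edgeR adjusted p = 0.00992), so the control cells gave no Il2ra UMI. 1600014C10Rik, a gene of unknown role, was also higher (log2 3.79), with 5 and 16 UMIs in Foxp3-positive and 8 and 6 in Foxp3-zero cells. Il2ra and 1600014C10Rik both reached the UMI minimum for a test through the Foxp3-positive cells, where they were higher. Without a count minimum neither gene was called (log2 2.94 for Il2ra and 3.28 for 1600014C10Rik).

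Satb1 and Igfbp4, genes of naive T cells, were higher in the Foxp3-zero cells. Satb1, a chromatin organiser that is repressed by FOXP3, had 0 and 2 UMIs in Foxp3-positive against 101 and 166 in Foxp3-zero cells (log2 -3.92, and -6.47 to -1.55 by the counting interval of the summed UMIs). Igfbp4 had 0 and 0 against 74 and 127, and the control Foxp3-positive cells alone are too shallow to give a direction for it or for Il2ra. The third gene, Igfbp7, had 96.4% of its UMIs in 1 cell. All 13 naive genes tested lay below 0, with a median log2 of -2.45 against -0.32 over all genes, of which 35.9% lay above 0, and all 8 regulatory T cell genes tested lay above 0 with a median of 1.90 and Il2ra called. The memory list had a median of 0.55 over 17 genes, with 0 called, and the interferon-stimulated list lay above 0 in 12 of 12 genes, with 0 called and a median of 1.22. With 10 cells in the smaller class DESeq2 called 0 genes, and a list with 0 called is not shown to be alike in both. The Foxp3-positive cells had medians of 2448 and 4978 UMIs and the Foxp3-zero cells 2793 and 3761, and the part of depth in the result was not tested.

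The libraries were then set side by side. Most genes of the CD4 T cells were within 2-fold of each other in the control and D-CAN libraries. Among 1438 genes whose UMIs in CD4 T cells summed to 50 or more, 8 were more than 2-fold higher in D-CAN cells (0.556%) and 16 more than 2-fold lower (1.11%), with a median log2 ratio of -0.04 and 666 genes (46.3%) above 0. The same 1438 genes gave 6 and 19 in CD8 T cells and 9 and 28 in B cells. With TMM scaling, which moved the median by 0.12, the split was 16 higher and 9 lower.

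**Figure D5:**
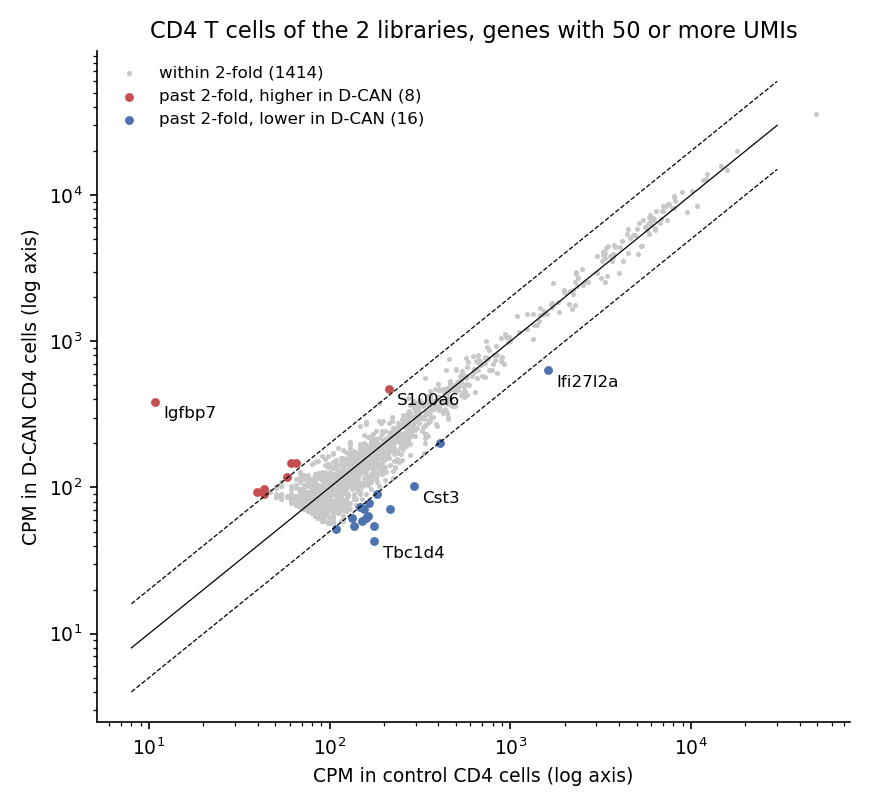
CPM in control CD4 T cells (x axis, log) and in D-CAN CD4 T cells (y axis, log) for genes with 50 or more UMIs over both libraries, 1 point per gene. The solid line marks equal levels and dashed lines a 2-fold difference. Ifi27l2a and Tbc1d4 lie under and Igfbp7 and S100a6 over the dashed lines.

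Ifi27l2a, an interferon-stimulated gene (chr12:103442167-103443680, minus strand), had 447 UMIs in 59 control members and 267 UMIs in 64 D-CAN members. That was 1614 CPM (interval 1468 to 1771) in control and 634 (561 to 715) in D-CAN CD4 T cells, a log2 ratio of -1.35, and the ratio was -1.70 in CD8 T cells and -1.39 in B cells. The level was thus lower in the D-CAN library in all 3 lymphocyte classes. It was the 1 gene past 2-fold of the 7 genes of the interferon-stimulated list with enough UMIs, and their median was -0.11. Gbp7, an interferon-induced guanylate-binding protein outside the list, was past 2-fold too, at -1.33.

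Tbc1d4, a Rab GTPase-activating protein of glucose transporter traffic, was at 177 CPM (131 to 234) in control and 42.8 (25.3 to 67.6) in D-CAN members, a log2 ratio of -2.02. In CD8 T cells it had 16 and 3 UMIs. Samsn1 (-1.68), an adaptor that restrains lymphocyte signalling, Tnfsf8 (-1.59, and -0.96 without the 5% of cells with the most UMIs), the CD30 ligand, Hif1a (-1.35), the hypoxia-inducible factor, Lcp2 (-1.32), an adaptor of T cell receptor signalling, and Nr3c1 (-1.12), the glucocorticoid receptor, were lower too. In CD8 T cells, where these genes had 28 to 65 UMIs, the ratios of Samsn1, Gbp7 and Tnfsf8 were -1.27, -0.88 and -0.63, and those of Hif1a, Lcp2 and Nr3c1 -0.27, 0.22 and -0.06. Cst3, a protease inhibitor also found in the dendritic list, stood at -1.51 with 39.5% of its control UMIs in 1 cell (-0.92 without the top cell of each library) and at -1.23 in CD8 T cells, and Tmem123 at -1.34 with 73.8%, and at 0.34 without that cell.

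Cd40lg was the 1 CD4 lineage gene past 2-fold, at 134 CPM (94.0 to 184) in control and 61.8 (40.4 to 90.5) in D-CAN members, a log2 ratio of -1.10. The intervals do not overlap, and they cover counting error alone. With TMM scaling, which raised the ratios by 0.12, Cd40lg was inside 2-fold. Ikzf2 (-0.95) and Izumo1r (-0.94) were just inside 2-fold. The regulatory T cell list had 0 of 6 genes past 2-fold and a median of -0.28, and the naive list 0 of 12 and 0.18, with 10 of 12 above 0, against 46.3% of all genes. Lef1 stood at 271 (213 to 339) and 406 (348 to 472) CPM. The activated and memory list had S100a6 past 2-fold of 13 genes, and a median of -0.16.

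On the other side, Igfbp7, an insulin-like growth factor binding protein of vessels, had 3 UMIs in control and 163 in D-CAN members (log2 4.94, interval 3.59 to 7.45), and 98.2% of the D-CAN UMIs lay in 1 cell, so that it was a difference of 1 cell. S100a6 was at 213 and 475 CPM (1.15) with 52.0% of its D-CAN UMIs in the cell that also led S100a4, and at 0.62 without the top cell of each library. It was at -0.17 without the 5% of cells with the most UMIs and at -0.48 after thinning, so its direction depended on these settings, and it was at -1.35 in CD8 T cells on 32 UMIs. Lgals1, a galectin, was at 188 and 378 CPM, with a log2 ratio of 0.77 without the top cell, 0.26 without the 5% of cells with the most UMIs and -0.55 in CD8 T cells. Socs3, a brake on cytokine receptors, was at 57.8 (33.0 to 93.8) and 119 (88.2 to 157) CPM, 1.01 on the log2 scale, 1.05 without the top cell and 0.41 after thinning, and was at -0.14 in CD8 T cells and 0.06 in B cells. Gm9493 (1.23), Anapc5 (1.18, and 0.25 after thinning), Ahcyl2 (1.13), Sys1 (1.02), Glrx3 (0.98, and 0.39 after thinning) and Snrpc (0.98) made up the 10 highest. Gm9493 was also above 0 in CD8 T cells (0.60) and B cells (0.88).

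Of the remaining lists, glycolysis had Hif1a of 9 genes past 2-fold, the sex-linked list its 1 gene with enough UMIs, Ddx3y (-1.04, inside 2-fold with TMM scaling), and all others 0. Ddx3y is on the Y chromosome, and the sexes and numbers of the mice behind each library are not stated in the sources used here. Ribosomal protein genes had 1 of 78 past 2-fold, with 62 above 0 and a median of 0.14. The median share of mitochondrial UMIs was 4.90% in control and 5.35% in D-CAN members. Depth, lymphocyte shares, the Cell Ranger release named in the file header and treatment all differed between the 2 libraries and cannot be told apart.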

How the data were processed

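The authors aligned the reads to mm10 with Ensembl 93 genes by Cell Ranger, which uses STAR, and deposited UMI count matrices of 31053 genes per library. The submitters' processing notes name Cell Ranger 3.1.0 and STAR 2.6, and the D-CAN SAT file header names another Cell Ranger release. Here, cells with 200 or more genes were kept, and counts were summed per library and class and given as CPM. The members and gene lists were chosen with earlier results of these data known. Class comparisons used edgeR 4.0.16 (R 4.3.3; TMM, glmQLFit, glmQLFTest, library as block, genes with 20 or more UMIs, Benjamini-Hochberg adjusted p under 0.05), and DESeq2 1.42.0 as an alternative. The minimum of 20 UMIs was taken over the 4 sums of a fit, so a gene could reach it through 1 class alone. The 15 genes of the rule were left out of the calls, as was Foxp3 in the comparison that it defines. D-CAN over control was a log2 ratio of CPM after 0.5 UMI was added. Intervals were Clopper-Pearson or exact Poisson (scipy 1.17.1, numpy 2.4.6, pandas 2.3.3, Python 3.11.15), and a count of 0 was taken to allow 3 counts. UMIs remove PCR copies, so intervals cover counting error only. Doublets were not called. 1 gene of the lists and the comparison that it defines are not reported here.

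Named genes were the 10 largest log2 changes in each direction among genes called with the same direction in both libraries (8 for the Foxp3 comparison; for D-CAN, the 10 highest and 10 lowest ratios), other than rule, ribosomal and mitochondrial genes, together with listed genes. Genes named beyond these, in counts of 5 or fewer or for their UMIs in 1 cell, were chosen after their values were seen. Positions are from GENCODE vM21. Both class comparisons were tested on simulated data, where that of Foxp3 called few of the changed genes and put unchanged genes below 0. That of CD4 against CD8 T cells called 47% of genes changed by a log2 of 1. The simulation used a set spread, not the fitted one, and changed only genes with many UMIs. It therefore does not speak for genes near the UMI minimum or with their UMIs in 1 cell.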

Additional observations from a re-analysis of the deposited data

Results flagged for a closer look

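Cells that met the rule for CD4 T cells were also found in the D-CAN tumor library, which no comparison here used: 3 of 1487 cells (0.202%, exact interval 0.0416 to 0.588%), against 0 of 2761 cells of the control tumor library, which allows up to 0.109%. That share in a tissue library outside the SAT comparison was the reason for the closer look. It rests on 3 cells, and the intervals, for counting error only, overlap.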

How the results depend on the processing

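The libraries could not be left out in turn with a test, because 1 library leaves 2 sums for 2 classes. Each of the 20 genes with the largest changes between CD4 and CD8 T cells was run under 12 alternatives. An adjusted p was given in 7 to 11 of them, and DESeq2 with independent filtering gave none for these genes. In the other settings without one, the gene had fallen under the minimum of 20 UMIs, and these cases are not in the counts that follow. Acta2, Mylk, Col4a2, Aqp1, Gpihbp1 and Egfl7 were among the genes that fell out without stromal or endothelial marker cells and without the top cell of each gene. Without their top cell, Mylk and Tpm2 had bounds of 0.226-fold and 0.451-fold, which give no direction. Of the values with an adjusted p, 166 kept direction and side of the threshold, 25 were no longer past it and 0 changed direction. For the 4 of the Foxp3 comparison these were 29, 15 and 0. Within 1 library, with no test, 0 of these genes changed direction where counts gave one. They gave none for Il2ra and Igfbp4 in the 3 control Foxp3-positive cells (0 UMIs), for Aqp1, Col4a2 and Gpihbp1 in the control, or for Acta2, Mylk and Tpm2 in the D-CAN library. The size of the change did depend on the library. It was counted as moved from the fitted value in 22 single-library values of 14 CD4 against CD8 genes, and in 4 values of 3 Foxp3 genes. Of the 20 D-CAN ratios, with no test, 3 changed direction: Igfbp7 (-0.62 without the 5% of cells with the most UMIs, -0.60 without stromal or endothelial marker cells), S100a6 (-0.17 without those 5% and -0.48 thinned) and Tmem123 (0.62 without those 5% and 0.34 without the top cell). With Cd4 at 2 or more UMIs, the rule took 0.950% of control and 1.48% of D-CAN SAT cells, which was 17.4% and 16.7% of CD4 plus CD8 T cells, and after thinning to 1000 UMIs Foxp3 was found in 0% of these in both libraries (1 of 28 D-CAN cells before thinning). With the rule applied after thinning to 1000 UMIs the shares were 1.14% and 1.76%, and 26.5% and 31.9%. With cytotoxic cells kept, control and D-CAN CD4 T cells were 34.0% and 35.7% of CD4 plus CD8 T cells. Control and D-CAN CD4 T cells were 4.04% and 6.03% of cells with 500 or more genes, and 4.35% and 6.41% with stromal and endothelial marker cells left out. These settings change which cells are counted. Foxp3 was found in 0% of control and 0.962% of D-CAN members thinned to 500 UMIs, in 3.75% and 1.98% thinned to 1500, and in 2.60% and 2.11% with 3 or more Cd3 UMIs, so the order of the libraries depended on the setting.

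The 258 calls of CD4 against CD8 T cells became 83 with 500 or more genes (41 higher in CD4 and 42 in CD8 T cells). The prior degrees of freedom were 9.75 there and 14.8 with no library block, and infinite in the main fit. The 258 calls became 56 with DESeq2 (5 and 51, where 297 of 5926 genes kept an adjusted p) and 20 without independent filtering (8 and 12). With no library block there were 66 (36 and 30), and 187 without stromal or endothelial marker cells (94 and 93). With cytotoxic cells kept there were 360 (151 and 209), so the balance of directions depended on the setting. Pairing by library is the design, and without the block the 5 Foxp3 calls became 16. The Foxp3 calls were 0 with DESeq2 with and without filtering, 10 without the 5% of cells with the most UMIs, 1 without a count minimum, 3 with robust edgeR and 1 without the top cell of each gene. For these calls the cause was not tested. The 24 genes past 2-fold between the libraries became 242 at 20 or more UMIs, 5 at 100 or more, 15 with 5 UMIs added, 163 at 1.5-fold and 3 after thinning, which left 330 genes. The marker filter, the robust and top-cell fits and DESeq2 without filtering were chosen after seeing the data. Depth limits all shares of cells, since most members had 1 Cd4 UMI.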
